A study of Mus musculus with 74 samples.

Results

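The libraries described here were made from microglia of Trem2 heterozygous mice that had eaten cuprizone chow, and the comparison is 12 weeks on the diet against 5 weeks. The comparison was chosen with earlier results of these data known. Its members are defined by their labels: the Cd11b-positive fraction, the genotype Trem2 +/-, the cuprizone diet and the week. They are 7 of the 74 libraries of the series, 4 from mice fed for 12 weeks (animals 1040, 2476, 6296 and 9469) and 3 from mice fed for 5 weeks (animals 1106, 1108 and 8042). Each library is 1 mouse, and each group held 1 male (animals 1040 and 8042). All 7 mice carried a knockout allele of Trem2 beside an intact one and ate chow with 0.2% cuprizone. Mice of 3 genotypes (Trem2 +/+, Trem2 +/- and Trem2 -/-) were on the cuprizone or the control diet in the study. Whole brains were dissociated, viable cells were sorted into Cd11b-positive cells (microglia) and all other cells (the nonmicroglia fraction), and RNA was sequenced as tags from the 3' ends of transcripts.

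Further sets of libraries served as points of comparison: heterozygotes on control chow (4 at 12 weeks and 3 at 5 weeks), wild types on cuprizone (3 at each time), knockouts on cuprizone (3 at each time), and the nonmicroglia fractions of the same 7 mice. The labels give no age, cohort, sort day or library batch. A longer time on the diet goes with a later collection and, if the diets were started at 1 age, with older mice, so time on diet, age and any batch between the 2 collections cannot be told apart. An RNA integrity number was given for all 3 of the 5-week libraries (8.8 to 9.8) and for 0 of the 4 libraries at 12 weeks, and it was likewise missing from the 12-week controls and present for 2 of the 3 control libraries at 5 weeks. The CD11b gate also admits other myeloid cells, and in sorted bulk RNA fewer cells of a type and less RNA per cell cannot be told apart.

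Cuprizone is a copper chelator that kills oligodendrocytes, and the microglia that clear the myelin debris take up large amounts of cholesterol. Trem2 is a lipid-sensing receptor that signals through Tyrobp. Mouse microglia need it to pass fully from the homeostatic state (P2ry12, Tmem119, Cx3cr1) to the disease-associated state (Apoe, Lpl, Cst7, Clec7a, Itgax, Gpnmb). Apolipoprotein E carries cholesterol out of such cells, and lysosomal hydrolases and the Npc1 and Npc2 proteins release it from ingested membrane.

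The 7 libraries held 1442730 to 2083570 counts at 12 weeks and 1753580 to 2013230 counts at 5 weeks (to 6 digits). Trem2, the targeted gene, was at 924, 724, 971 and 1051 CPM (counts scaled to library size) at 12 weeks, against 1032, 668 and 473 CPM at 5 weeks. The groups overlapped, with a log2 fold change (12 weeks over 5 weeks) of 0.34 ± 0.30 (SE, 95% interval -0.26 to 0.94; edgeR adjusted p = 0.892). On cuprizone it averaged 918 ± 139 CPM at 12 weeks and 725 ± 284 CPM at 5 weeks in heterozygotes, 157 ± 75.5 CPM at 12 weeks and 198 ± 13.1 CPM at 5 weeks in knockouts, and 962 ± 121 CPM at 12 weeks and 730.0 ± 285 CPM at 5 weeks in wild types (SD). On cuprizone the knockouts lay lowest and the heterozygous means lay within 1 SD of the wild-type means at both times. On control chow the 7 heterozygous libraries, at 302 to 429 CPM, all lay below the wild-type libraries, at 511 to 960 CPM. The nonmicroglia libraries of the same mice held between 7 and 24 Trem2 counts, so the fractions went with their labels. The share of counts on mitochondrial genes averaged 4.30 ± 0.24% at 12 weeks (SD, n = 4) and 3.33 ± 0.72% at 5 weeks (SD, n = 3). The lowest chi-square statistic per degree of freedom between any pair of the 7 count profiles was 11.04, far above sampling noise, and all 7 were kept as separate samples.

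Markers of other cells differed between the groups. The 12 neutrophil markers summed to 181, 291, 259 and 405 CPM at 12 weeks, against 918, 2169 and 522 CPM at 5 weeks, and the groups did not overlap. Animal 1108 held the highest sum of all, and also the highest sums of neuron, astrocyte, ependymal and mural markers. Neuron markers summed to 37.04 to 105 CPM at 12 weeks and 130 to 279 CPM at 5 weeks. The 12 border macrophage markers, of the macrophages that line vessels and meninges, summed to 348 to 713 CPM at 12 weeks and 679 to 1192 CPM at 5 weeks, where only animal 8042 reached into the 12-week range. T and NK cell markers stayed at or under 30.3 CPM in sum in every library, and 6 of their 16 genes had no count in any of the 7. The part of these cells in the differences below was not tested. Values without animal 1108 are given for some lists, but they are no such test. The neutrophil and neuron sums of animals 1106 and 8042 also lay above every 12-week sum.

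**Figure D1:**
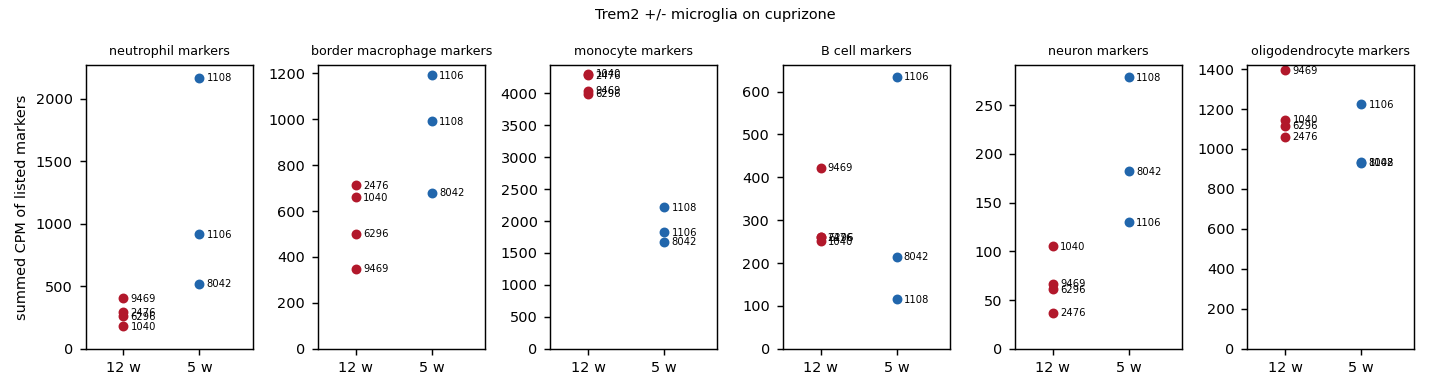
Summed CPM of the listed markers of 6 cell types in each library (numbers are animals), 12 weeks left of 5 weeks in each panel. The neutrophil sums were 181 to 405 CPM at 12 weeks, all below the 522 to 2169 CPM at 5 weeks; the monocyte sum is carried mainly by Lyz2, which microglia also express.

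Between 12 and 5 weeks, 3 of 14087 tested genes changed in heterozygous microglia. Apoe and Pld3 rose and Tgm2 fell, by edgeR's quasi-likelihood test with an adjusted p under 0.05. Calls higher at 12 weeks were 0.0142% of the genes tested and calls lower were 0.0071%. An unadjusted p under 0.05 was reached by 989 genes. Leaving out 1 library at a time gave between 0 genes (without animal 8042) and 10 genes (without animal 1106), and 1 gene without animal 1040, 6296, 9469 or 1108. DESeq2 called 13 genes and limma 26, and these sets shared 9, among them all 3 of the edgeR calls. Because so few genes passed, members of gene groups are also described by whether all 12-week libraries lay above, or all lay below, all 5-week libraries. Over all genes tested 422 lay wholly above (3%) and 458 wholly below (3.25%), with no further test.

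Apoe, the apolipoprotein that loads cholesterol onto secreted particles, was measured at 17880, 15975, 19762 and 19657 CPM in the 12-week libraries, against 7434, 6506 and 4556 CPM in the 5-week libraries. All 12-week libraries lay above the highest 5-week library, and the means were 18318 ± 1785 CPM (SD, n = 4) and 6165 ± 1469 CPM (SD, n = 3), a 2.97-fold difference. The log2 fold change was 1.57 ± 0.24 (SE; edgeR adjusted p = 0.000275). It passed in every alternative setting but 1: without animal 8042, the lowest 5-week library, it was 1.47 with an adjusted p of 0.0523. The gene (ENSMUSG00000002985) lies on the minus strand of chromosome 7, at chr7:19696109-19699188 in GRCm38.p6.

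Pld3 encodes a lysosomal exonuclease of the phospholipase D family. Its libraries gave 508, 448, 614 and 672 CPM at 12 weeks and 215, 195 and 161 CPM at 5 weeks, with no overlap and a mean 2.93 times as high at 12 weeks. The log2 fold change was 1.55 ± 0.30 (SE; edgeR adjusted p = 0.0287). The adjusted p rose to between 0.0772 and 0.491 when animal 1040, 6296, 9469, 1108 or 8042 was left out, while the log2 fold change stayed between 1.47 and 1.67 over all libraries left out in turn. Pld3 (ENSMUSG00000003363) lies on the same chromosome and strand, at chr7:27532000-27553218.

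Tgm2, transglutaminase 2, which crosslinks proteins, was the called gene that fell. It was at 18.1, 31.2, 30.1 and 32.2 CPM at 12 weeks, against 128, 82.0 and 97.0 CPM at 5 weeks. Every 12-week library lay well below the lowest 5-week library, and animal 1040 lay below its own group. Its log2 fold change was -1.84 ± 0.38 (SE; edgeR adjusted p = 0.0422). That call was lost when any of the 7 libraries was left out (adjusted p 0.0867 to 0.305, log2 fold change -1.97 to -1.56), with the noncoding share of counts as a covariate (0.0708) and with only these 2 groups in the fit (0.201). Tgm2 (ENSMUSG00000037820) lies on the minus strand at chr2:158116402-158146436.

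The promoters of both genes that rose are shown to let them be set beside a promoter of the replication genes described further on, Mcm3. They are the 250 bases before and 50 bases after a RefSeq transcription start (GRCm38.p6), read 5′ to 3′ on the gene's own minus strand, and capitals mark matches to the 6 motifs searched on both strands.
Apoe, chr7:19699139-19699438: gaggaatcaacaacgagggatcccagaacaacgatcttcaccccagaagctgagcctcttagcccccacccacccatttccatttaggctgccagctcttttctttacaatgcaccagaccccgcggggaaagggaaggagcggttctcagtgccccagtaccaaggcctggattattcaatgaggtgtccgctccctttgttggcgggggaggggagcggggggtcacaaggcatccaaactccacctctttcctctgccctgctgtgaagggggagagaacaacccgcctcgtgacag
Pld3, chr7:27553169-27553468: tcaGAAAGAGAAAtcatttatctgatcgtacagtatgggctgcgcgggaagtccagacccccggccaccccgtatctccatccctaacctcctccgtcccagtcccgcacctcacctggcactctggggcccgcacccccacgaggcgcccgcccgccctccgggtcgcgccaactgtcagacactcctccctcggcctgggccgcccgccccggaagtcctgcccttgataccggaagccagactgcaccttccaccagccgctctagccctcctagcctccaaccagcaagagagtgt
Mcm3, chr1:20820263-20820562: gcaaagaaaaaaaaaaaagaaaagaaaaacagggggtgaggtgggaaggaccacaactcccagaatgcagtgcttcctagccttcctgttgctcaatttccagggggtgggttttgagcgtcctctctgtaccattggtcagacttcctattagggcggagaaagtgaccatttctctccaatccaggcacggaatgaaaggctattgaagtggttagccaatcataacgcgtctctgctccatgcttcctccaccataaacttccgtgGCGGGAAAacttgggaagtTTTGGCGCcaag
The capitals mark 1 match to GAAANNGAAA, the interferon-stimulated response element, in Pld3 and matches to TTTNNCGC, an E2F element, in Mcm3. The Apoe window shown, 1 of 3 in the table, held none. A match to the interferon element stood in a promoter of 15 of the 25 interferon genes in the table, against 3.99% of the 27025 genes there and 3.97% of the 9883 of them tested here. An E2F match stood in 9 of the 35 cell-cycle genes, against 5.93% of all genes and 9.70% of those tested. A match to TCACGTG, the CLEAR element of lysosomal genes, stood in 9 of the 32 lysosomal genes, against 4.29% of all genes and 7.09% of those tested. A DR4 element (GGTCANNNNGGTCA), which liver X receptors bind, stood in 0 of the 16 cholesterol efflux genes, against 0.0518% of all genes. The remaining motifs were the C/EBP-ATF element TGATGNAA, in 7 of 21 stress-response genes against 4.51% of all genes and 2.89% of those tested, and the sterol element TCACNCCAC, in 1 of 18 cholesterol synthesis genes against 1.44%. These matches describe letters in the windows and are no evidence that a factor bound there.

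Beyond the 3 calls, the genes nearest to the threshold were mt-Rnr1, the mitochondrial small ribosomal RNA (adjusted p = 0.0779), Lyz2, lysozyme (0.109), and Ccnd1 and Ctnnbip1 (both 0.126). All but Lyz2 were picked after their values were seen. The mt-Rnr1 mean was 9640 ± 803 CPM at 12 weeks and 4527 ± 1854 CPM at 5 weeks (SD). DESeq2 (0.00989), limma (3.89e-05) and edgeR without the count filter (5.35e-05) called it. Lyz2 was at 2914, 2773, 3618 and 3733 CPM at 12 weeks and 1726, 1629 and 1198 CPM at 5 weeks, a log2 fold change of 1.10 ± 0.25 (SE) that DESeq2 (0.00989) and limma (0.00209) called. Ccnd1, cyclin D1, which drives entry into the cell cycle, was at 175, 164, 219 and 125 CPM at 12 weeks and 426, 370 and 323 CPM at 5 weeks. Ctnnbip1, an inhibitor of beta-catenin, was at 29.4, 29.9, 55.2 and 42.2 CPM at 12 weeks and 123, 85.4 and 106 CPM at 5 weeks. None of these genes overlapped between the groups, and DESeq2 called both Ccnd1 (0.00989) and Ctnnbip1 (0.0151) while limma called neither.

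**Figure D2:**
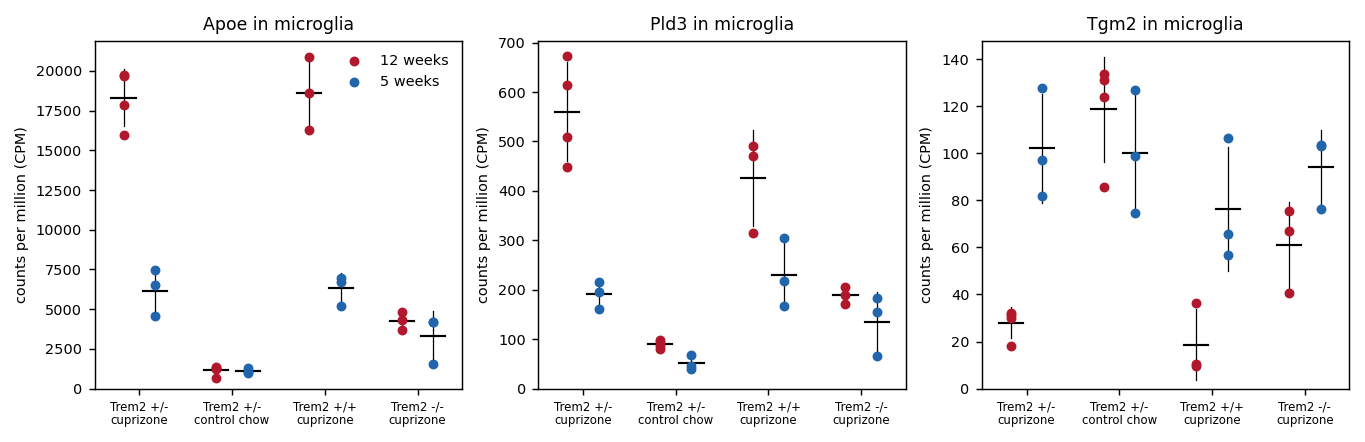
CPM of Apoe, Pld3 and Tgm2 in every microglia library of 4 genotype and diet sets, with 12 weeks (red) left of 5 weeks (blue); horizontal lines are means and vertical lines 1 SD. Apoe in heterozygotes on cuprizone was 15975 to 19762 CPM at 12 weeks, against 4556 to 7434 CPM at 5 weeks, and on control chow it stayed at or under 1383 CPM at both times.

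The disease-associated list was the one with the most members higher at 12 weeks. Of its 28 genes 27 were tested, 25 had a positive log2 fold change, and 11 lay wholly above their 5-week values (40.7%, against 3% of all genes); 0 lay wholly below. The median log2 fold change was 0.54, against -0.01 over all genes, and it stayed between 0.43 and 0.70 under every alternative. Only Apoe passed the test. Without animal 1108 the count was 17 of 27, against 6.34% of all genes, and the median stayed within that range.

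Among these genes, Gpnmb, a lysosomal membrane glycoprotein of lipid-laden macrophages, was at 369, 429, 400 and 411 CPM at 12 weeks and 30.4, 176 and 30.2 CPM at 5 weeks. The 12-week libraries were close together, the 5-week libraries were spread, and the difference of 2.46 ± 0.90 (log2, SE) did not pass (edgeR adjusted p = 0.707), although limma called it (0.0334). Itgax, the integrin CD11c, was at 373, 352, 425 and 568 CPM at 12 weeks and 202, 130 and 170 CPM at 5 weeks. Axl, a receptor for dying cells, was at 370, 394, 545 and 611 CPM at 12 weeks and 319, 196 and 71.3 CPM at 5 weeks. Neither overlapped, and both had an adjusted p of 0.707 in edgeR and were called by limma (Itgax 0.0239, Axl 0.0446).

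Igf1, a growth factor for oligodendrocytes, was at 261, 336, 389 and 300 CPM at 12 weeks and 138, 185 and 57.1 CPM at 5 weeks, with a log2 fold change of 1.35 ± 0.54 (SE, adjusted p = 0.707). Lgals3, galectin 3, which marks damaged lysosomes, differed by 1.37 ± 0.64, Clec7a, the beta-glucan receptor dectin 1, by 0.65 ± 0.31 and Cst7, cystatin F, by 0.72 ± 0.45 (log2, SE). All 4 lay wholly above their 5-week values and none passed the test. The remaining members without overlap were Fabp5, a fatty acid carrier (1.702 ± 1.03), Cd63, a lysosomal tetraspanin (0.80 ± 0.21), and Timp2, a metalloproteinase inhibitor (0.46 ± 0.22).

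Spp1, osteopontin, was at 705, 889, 611 and 857 CPM at 12 weeks and 59.0, 771 and 238 CPM at 5 weeks, so that animal 1108 lay inside the 12-week range. Lpl, lipoprotein lipase, overlapped for the same reason: 1607 to 2645 CPM at 12 weeks, against 779, 1788 and 1102 CPM at 5 weeks. Over the 27 genes the SD of log2(CPM + 1) was larger among the 5-week libraries in 23 (85.2%), with medians of 0.25 at 12 weeks and 0.52 at 5 weeks. Over the 4869 genes with an average log2 CPM of at least 5 it was larger at 5 weeks in 50.4%, with medians of 0.46 and 0.47. At that level it was larger at 5 weeks in 16 of 21 homeostatic genes (76.2%) and 25 of 38 lysosomal genes (65.8%). Among cell-cycle genes it was larger at 5 weeks in 3 of 7. This describes 4 and 3 libraries and was not tested.

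**Figure D3:**
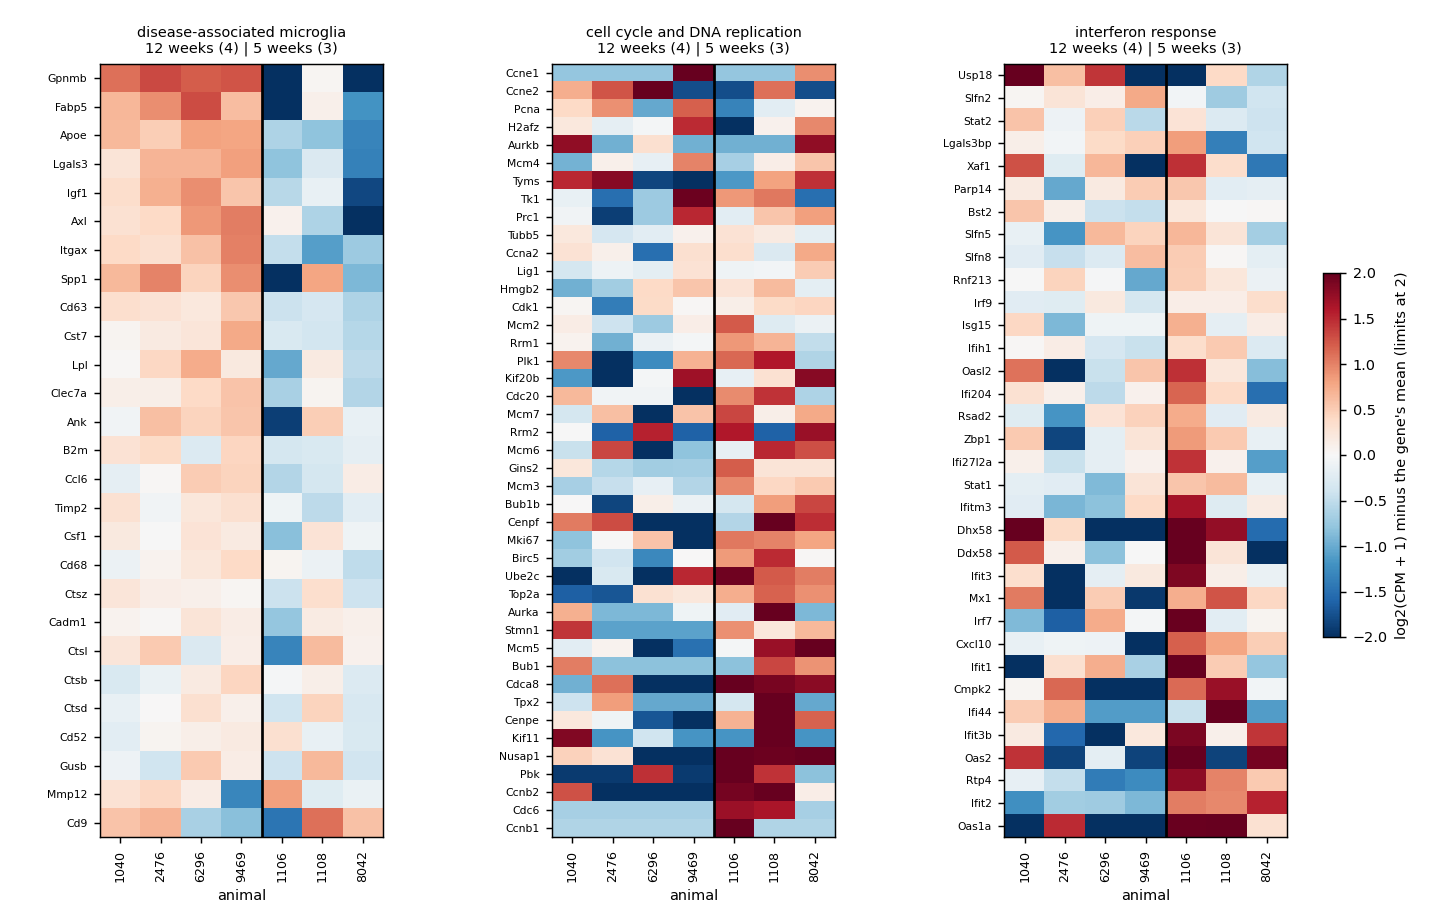
Colour shows log2(CPM + 1) minus the gene's mean over the 7 libraries, for the tested members of 3 lists; the 4 libraries at 12 weeks stand left of the black line and the 3 at 5 weeks right of it. The disease-associated panel is mostly red at left (25 of 27 log2 fold changes positive), and the cell-cycle panel mostly red at right (36 of 43 negative).

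Cholesterol efflux genes leaned the same way, with Apoe as their only call. Apoe also stands in the disease-associated list, and Npc2 also in the lysosomal list. Other lists share members too, among them Cd63, Axl and Tfeb, so lists that lean the same way are not independent. Of the 20 tested, 16 were positive and 3 lay wholly above, against 3% of all genes (none wholly below). The median was 0.42 (0.70 without animal 1108). Npc2, which hands cholesterol from the lysosome's lumen to Npc1, was at 2331, 1992, 1936 and 2805 CPM at 12 weeks and 1488, 1287 and 1338 CPM at 5 weeks, with no overlap and a log2 fold change of 0.73 ± 0.21 (SE; edgeR adjusted p = 0.526, DESeq2 0.0427, limma 0.0265). Apoc1, encoded beside Apoe, was at 50.1, 126, 89.7 and 68.3 CPM at 12 weeks and 17.9, 16.6 and 16.6 CPM at 5 weeks (2.14 ± 1.08, adjusted p = 0.709).

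The membrane exporters did not share this lean. Abca1 was at 214, 318, 316 and 130 CPM at 12 weeks and 176, 349 and 281 CPM at 5 weeks, a log2 fold change of -0.14 with a 95% interval of -0.72 to 0.45. Abcg1 differed by -0.98 ± 0.46 (log2, SE; adjusted p = 0.707), with 22.3 to 131 CPM at 12 weeks and 63.8 to 167 CPM at 5 weeks. Soat1, which esterifies cholesterol for storage, was at 220 to 227 CPM at 12 weeks and 131 to 232 CPM at 5 weeks. Among the 23 genes of cholesterol synthesis and uptake, 13 were positive and the median was 0.15. Of them 1 lay wholly above (Srebf2, the transcription factor of the pathway, 0.71 ± 0.36), against 3% of all genes. Among the 26 genes of lipid droplets and fatty acids, 15 were positive, only Fabp5 lay wholly above, and Plin2, the droplet coat protein, was at 21.7 to 35.7 CPM at 12 weeks and 14.3 to 26.2 CPM at 5 weeks.

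The lysosomal list held 39 tested genes, of which 29 were positive, 6 lay wholly above and 0 wholly below (15.4% above, against 3% of all genes), with a median of 0.20 (0.36 without animal 1108). None passed edgeR's test, while DESeq2 and limma called Cd63 (0.0449 and 0.0239) as well as Npc2. Named because their libraries did not overlap, these included Cd63, Npc2, Lamp2 (a lysosomal membrane protein), Grn (progranulin) and Tfeb, the transcription factor that binds the CLEAR element. Tfeb was at 82.6, 62.4, 70.3 and 86.7 CPM at 12 weeks and 56.1, 27.3 and 37.1 CPM at 5 weeks (log2 fold change 0.90 ± 0.48, SE). Its relatives Mitf (0.69 ± 0.34) and Tfe3 (0.46 ± 0.37) also lay wholly above their 5-week values, and none of these 3 passed (adjusted p 0.709 to 0.873). Of the 9 genes with a CLEAR match, 0 lay wholly above or below. The proteases Ctsb and Ctsd differed by 0.12 ± 0.21 and 0.11 ± 0.20. Of the 17 proton pump subunits 8 were positive, and Atp6v0d2, a macrophage-rich subunit, was at 10.7 to 34.4 CPM at 12 weeks and 0 to 3.91 CPM at 5 weeks (3.85 ± 1.74, adjusted p = 0.707).

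Homeostatic genes did not move together. Of 21 tested, 8 were positive and 13 negative, with a median of -0.16 (-0.06 without animal 1040). Of these, 1 lay wholly above and 2 wholly below, against 3% and 3.25% of all genes, and none passed. Tmem119, a surface protein of resident microglia, was at 321, 470, 306 and 354 CPM at 12 weeks and 850, 498 and 618 CPM at 5 weeks, a log2 fold change of -0.85 ± 0.24 (SE; edgeR adjusted p = 0.526). Sall1, a transcription factor of microglial identity, was at 768, 611, 730 and 499 CPM at 12 weeks and 855, 884 and 1133 CPM at 5 weeks (-0.54 ± 0.21, adjusted p = 0.707). P2ry12, the ADP receptor, overlapped at 1461 to 1664 CPM at 12 weeks and 1203 to 2320 CPM at 5 weeks, and the fractalkine receptor Cx3cr1 differed by -0.33 with a 95% interval of -0.75 to 0.08.

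In the list of microglial transcription factors 5 of 27 lay wholly above and 1 (Sall1) wholly below. Over all genes these shares were 3% and 3.25%, and the list's median was 0.01. Cebpa, a factor of myeloid differentiation, was at 2184, 1622, 1282 and 1642 CPM at 12 weeks and 782, 741 and 1031 CPM at 5 weeks, a log2 fold change of 1.002 ± 0.26 (SE; edgeR adjusted p = 0.427). Fli1, an ETS factor, differed by 0.97 ± 0.41 without overlap. Of the 24 phagocytic receptors 4 lay wholly above, against 3% of all genes. Among them was Fcgr2b, the inhibitory Fc receptor, at 275, 442, 285 and 328 CPM at 12 weeks and 204, 74.7 and 122 CPM at 5 weeks (1.34 ± 0.40, adjusted p = 0.594).

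Antigen presentation genes were mostly positive. In the class I list 12 of 16 were positive with a median of 0.47, which was 0.0857 without animal 8042 and at most 0.639 in the other alternatives, and H2-D1, a class I heavy chain, was at 947, 948, 935 and 1070 CPM at 12 weeks and 686, 533 and 274 CPM at 5 weeks (0.98 ± 0.33, SE; adjusted p = 0.707). In the class II list 9 of 10 were positive with a median of 0.48 (0.31 without animal 9469, 0.80 without animal 1106), and none was free of overlap. H2-Aa was at 489, 463, 601 and 642 CPM at 12 weeks and 675, 316 and 297 CPM at 5 weeks, with animal 1106 the highest of the 7. Without that animal 4 of the 10 genes lay wholly above, against 6.77% of all genes. For Cd74, the invariant chain, animal 8042 was the 5-week library that overlapped, at 135 CPM against 131 to 174 CPM at 12 weeks.

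Cell-cycle and replication genes leaned down. Of 44 listed, 43 were tested, 36 had a negative log2 fold change and 8 lay wholly below their 5-week values (18.6%, against 3.25% of all genes), while 0 lay wholly above. The median was -1.02 and none passed edgeR's test. Only 7 of the tested genes had an average log2 CPM of at least 5, so the median rests mostly on genes with low counts. Summed over the list, the libraries held 891, 797, 798 and 1153 CPM at 12 weeks and 1372, 1497 and 1286 CPM at 5 weeks. Top2a, the topoisomerase of dividing cells, was at 16.5, 15.6, 66.0 and 62.9 CPM at 12 weeks and 88.9, 123 and 101 CPM at 5 weeks, a log2 fold change of -1.50 ± 0.57 (SE; adjusted p = 0.707). Mcm3, a subunit of the replicative helicase whose promoter is printed above, was at 41.3, 48.1, 58.8 and 43.7 CPM at 12 weeks and 130, 88.4 and 95.9 CPM at 5 weeks (-1.13 ± 0.37, adjusted p = 0.707).

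Mki67, the proliferation antigen, was at 5.16, 9.75, 15.1 and 0.767 CPM at 12 weeks and 21.5, 20.5 and 17.7 CPM at 5 weeks, a low level at this depth (-1.44 ± 1.34, log2, SE). Birc5, Cenpe, Nusap1, Gins2 and Cdca8 made up the rest of the 8. Pcna went the other way, at 55.8, 79.9, 20.1 and 97.4 CPM at 12 weeks and 16.1, 36.1 and 43.9 CPM at 5 weeks (1.02 ± 0.67). Of the 9 genes with an E2F match in their promoters, 8 were tested, 7 were negative, and only Mcm3 was free of overlap. Without animal 1108 the list's median was -0.54 and 11 of 43 lay wholly below, against 6.41% of all genes. Neutrophil precursors also divide, and the neutrophil sums moved in the same direction (181 to 405 CPM at 12 weeks, 522 to 2169 CPM at 5 weeks). In wild types and knockouts, which are other mice, the cell-cycle medians were -1.15 and -0.82 and the neutrophil medians 0.31 and 1.71. Elane and Mpo, made by such precursors, were at 0 and at or under 2.93 CPM. The part of neutrophil precursors in the cell-cycle difference was not tested in these libraries.

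Interferon-response genes leaned down with them: 29 of 34 tested were negative, with a median of -0.52. Of the 34, 3 lay wholly below and 1 wholly above, against 3.25% and 3% of all genes. None passed the test. Rtp4 was at 40.3, 32.5, 16.5 and 18.4 CPM at 12 weeks and 159, 91.3 and 65.6 CPM at 5 weeks (-1.90 ± 0.59, adjusted p = 0.651). The chemokine Cxcl10 was at 94.5, 98.8, 97.6 and 23.02 CPM at 12 weeks and 242, 181 and 148 CPM at 5 weeks (-1.26 ± 0.47), and the antiviral Ifit2 differed by -2.05 ± 0.84 (log2, SE). Some members were high in animal 1106 alone, such as Ifitm3 at 413 CPM there, against 108 and 145 CPM in the other 5-week mice and 68.2 to 170 CPM at 12 weeks. The list's median was -0.23 without animal 1106 and stayed negative in every alternative, down to -0.95.

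**Figure D4:**
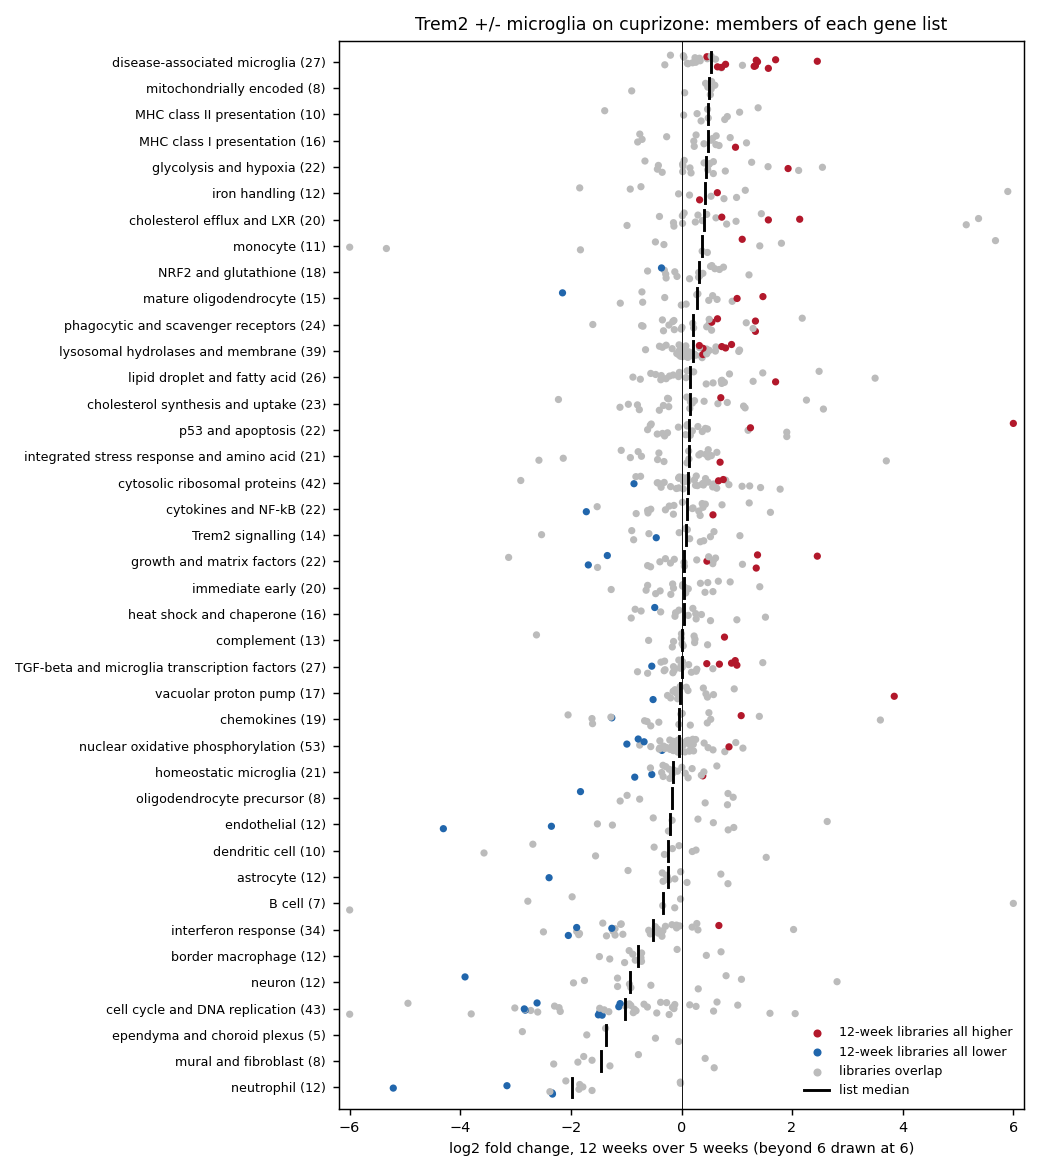
Each point is a tested gene and its log2 fold change, 12 weeks over 5 weeks, for the lists with 5 or more tested genes (number in parentheses), ordered by the list median (black bar). Red and blue points are genes whose libraries did not overlap; the disease-associated list stands at the top (median 0.54) and the neutrophil list at the bottom (median -1.97), and no list was tested as a set.

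Energy and translation genes showed no common direction. Nuclear genes of oxidative phosphorylation had a median of -0.05 with 1 of 53 wholly above and 4 wholly below, and cytosolic ribosomal proteins had a median of 0.11 with 2 of 42 above and 1 below. Over all genes 3% lay wholly above and 3.25% wholly below. Of 8 tested protein-coding genes of the mitochondrial genome 7 were positive (median 0.50, 0.22 without animal 1108 and 0.88 without animal 1106). All 8 overlapped, with animal 1106 at the level of the 12-week mice, unlike the ribosomal RNA mt-Rnr1 given above. For example, mt-Nd1 was at 5092, 6301, 5155 and 6947 CPM at 12 weeks and 7360, 2265 and 2654 CPM at 5 weeks. Matrix and growth factor genes were split. Of 22 tested, 4 lay wholly above (Gpnmb, Igf1, Lgals3 and Timp2, given above) and 2 wholly below, against 3% and 3.25% of all genes. Tgfbi, a matrix protein of macrophages, lay wholly below at 17.6, 33.1, 34.4 and 19.2 CPM at 12 weeks, against 107, 99.6 and 44.5 CPM at 5 weeks (-1.69 ± 0.52, adjusted p = 0.630), and Lgals1, galectin 1, differed by -1.34 ± 0.51. Both are also expressed by monocytes and border macrophages, whose markers are given above.

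Neutrophil genes had the lowest median of any list, -1.97, with all 12 tested genes negative. Elane, 1 of the 12, had no count in any of the 7 libraries, so its sign comes from the fit alone. Wholly below lay 4 genes (S100a8, S100a9, Retnlg and Mmp9), against 3.25% of all genes. None of the 12 passed in the edgeR fit with its count filter. DESeq2 called Retnlg (0.0300), and edgeR without the filter called S100a8, S100a9, Retnlg and Ngp. The calprotectin subunit S100a8 was at 51.1, 125, 98.3 and 156 CPM at 12 weeks and 511, 840 and 252 CPM at 5 weeks (-2.33 ± 0.99, SE). Retnlg was at 0, 1.95, 2.87 and 0 CPM at 12 weeks and 12.5, 104 and 19.97 CPM at 5 weeks. Without animal 1108 the list's median was -0.94. Border macrophage genes had a median of -0.78 with 10 of 12 negative and no gene free of overlap. Their median ran from -1.01 without animal 2476 to -0.37 in limma. Without animal 8042 5 of the 12 lay wholly below, against 7.14% of all genes. Mature oligodendrocyte markers summed to 1061 to 1395 CPM at 12 weeks and 931 to 1224 CPM at 5 weeks.

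Heterozygotes on control chow were compared over the same interval to see whether time alone went with these differences. No gene passed in edgeR (0% of 14087; limma also 0, DESeq2 13), and 1029 had an unadjusted p under 0.05. Genes wholly above were 3.07% and genes wholly below 4.47%. Apoe on control chow averaged 1141 ± 317 CPM at 12 weeks (SD, n = 4) and 1111 ± 156 CPM at 5 weeks (SD, n = 3), a log2 fold change of 0.04. Pld3 averaged 89.6 ± 8.28 CPM at 12 weeks and 51.0 ± 14.6 CPM at 5 weeks (0.81, adjusted p = 0.648), and Tgm2 119 ± 22.3 CPM and 100.3 ± 26.1 CPM in the same order (0.26).

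The difference between the 2 diets in the 12 minus 5 week change was tested as an interaction, and no gene passed (0%; 1008 with an unadjusted p under 0.05; limma 0, DESeq2 28). It was 1.53 ± 0.33 for Apoe (log2, SE; edgeR adjusted p = 0.222), 0.74 ± 0.42 for Pld3 (0.743) and -2.10 ± 0.53 for Tgm2 (0.342). So the cuprizone change of these 3 genes is not shown to differ from the control-chow change at this threshold. Disease-associated genes had a median of 0.54 on cuprizone and 0.25 on control chow, where 5 of 27 lay wholly above and 1 wholly below. Over all genes on control chow 3.07% lay wholly above and 4.47% wholly below. The cell-cycle median was -1.02 on cuprizone and 0.09 on control chow, and the interferon median -0.52 on cuprizone and 0.41 on control chow. The lysosomal median was 0.20 on both diets, and on control chow 7 of 39 genes lay wholly above and 3 wholly below. The cholesterol efflux median was 0.42 on cuprizone and 0.35 on control chow, where 1 of 20 lay wholly above and 0 wholly below. Nuclear oxidative phosphorylation and ribosomal protein genes had medians of -0.05 and 0.11 on cuprizone, against -0.62 and -0.46 on control chow, where 16 of 53 and 12 of 42 lay wholly below.

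The differences between diets share libraries with the comparisons above and are given side by side as values. Heterozygous microglia on cuprizone differed from those on control chow in 359 genes at 12 weeks (265 higher, 94 lower) and in 39 genes at 5 weeks (37 higher, 2 lower). Of the 27 disease-associated genes 21 were called higher at 12 weeks and 16 at 5 weeks. Their median log2 difference from control chow was 2.34 at 12 weeks and 2.15 at 5 weeks. Each diet held 4 mice at 12 weeks and 3 at 5 weeks, so the counts of calls cannot be compared directly. Tgm2 was -2.07 against control chow at 12 weeks and 0.03 at 5 weeks (log2), and Top2a was 1.196 at 12 weeks (adjusted p = 0.317) and 2.87 at 5 weeks (adjusted p = 0.0284).

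**Figure D5:**
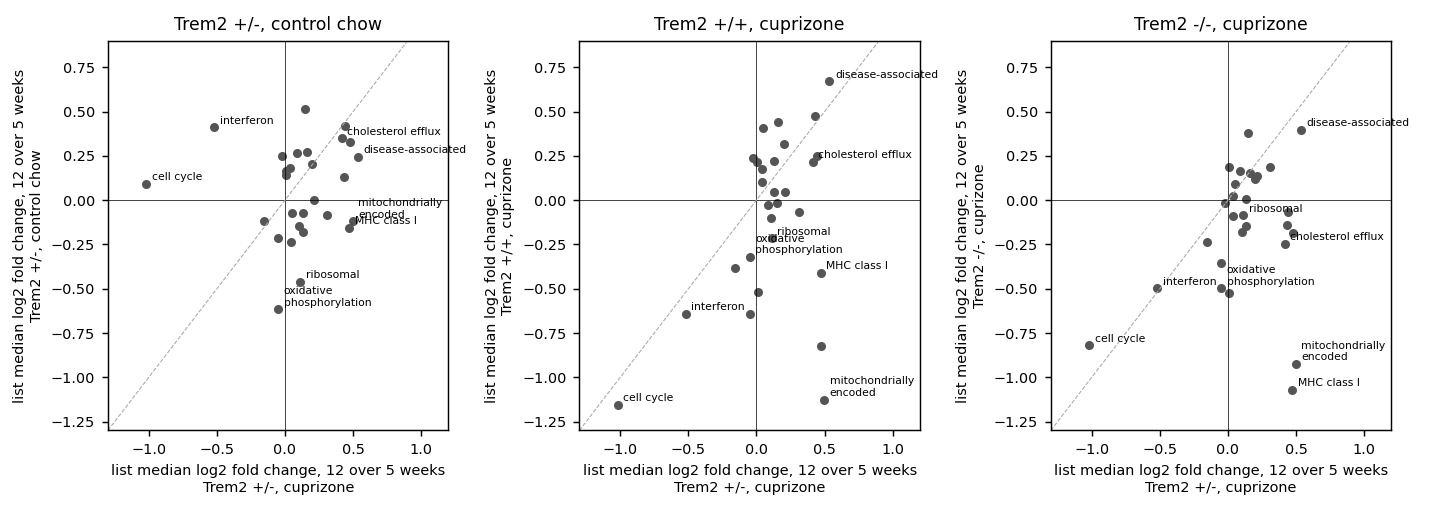
Each point is 1 of the 28 program lists; the horizontal axis is its median log2 fold change (12 over 5 weeks) in heterozygous microglia on cuprizone, the vertical axis the same median in heterozygotes on control chow, wild types on cuprizone or knockouts on cuprizone, and the dashed line marks equal values. The cell-cycle list is at -1.02 on the horizontal axis and at 0.09, -1.15 and -0.82 on the vertical axes; the mitochondrially encoded list is at 0.50 and at -0.12, -1.13 and -0.92.

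Wild-type and knockout mice on cuprizone were compared over the same interval to set the heterozygotes beside both full genotypes. In wild types 14 of 14087 genes passed (0.0994%; 9 higher, 5 lower), Apoe and Tgm2 among them, and in knockouts 0 passed (0%; 1316 with an unadjusted p under 0.05; limma 7, DESeq2 67). Apoe averaged 18318 ± 1785 CPM at 12 weeks and 6165 ± 1469 CPM at 5 weeks in heterozygotes, 18581 ± 2307 CPM at 12 weeks and 6310 ± 947 CPM at 5 weeks in wild types, and 4264 ± 565 CPM at 12 weeks and 3309 ± 1546 CPM at 5 weeks in knockouts. Its log2 fold change was 1.57 in heterozygotes, 1.54 in wild types and 0.40 in knockouts. The difference of the heterozygous from the wild-type change was 0.03 ± 0.34 (adjusted p = 1), and from the knockout change 1.17 ± 0.34 (log2, SE; edgeR adjusted p = 0.272).

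Tgm2 changed by -1.84 in heterozygotes, -2.04 in wild types (adjusted p = 0.0154) and -0.63 in knockouts, and neither difference passed (0.20 ± 0.55 from wild type, -1.21 ± 0.55 from knockout). Pld3 changed by 1.55 in heterozygotes, 0.90 in wild types and 0.46 in knockouts, with differences of 0.65 ± 0.43 and 1.09 ± 0.43 that did not pass. Gpnmb was at 402 ± 25.3 CPM at 12 weeks and 78.8 ± 84.0 CPM at 5 weeks in heterozygotes, 912 ± 194 CPM at 12 weeks and 110 ± 95.3 CPM at 5 weeks in wild types, and 103 ± 76.6 CPM at 12 weeks and 46.8 ± 55.9 CPM at 5 weeks in knockouts.

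The wild-type calls that did not pass in heterozygotes in the same edgeR fit included Cd63, at 0.80 in heterozygotes and 1.501 in wild types, P2ry12, at -0.21 and -1.50 in the same order, Alox5ap, a leukotriene synthesis protein, at -0.26 and -1.56, and Cebpa, at 1.002 and 1.54. In heterozygotes Cd63 was called by DESeq2 (0.0449), by limma (0.0239) and by edgeR without the count filter (0.0469), and Cebpa by edgeR without the filter (0.0377). No gene's change differed between heterozygotes and wild types in edgeR (0%; 947 with an unadjusted p under 0.05; limma 9, DESeq2 4; 9 in edgeR without animal 1106), and the adjusted p of the difference was 0.618 or more for each of the 14. Against knockouts 1 gene's change differed (0.0071%): Rps26, a ribosomal protein, at 1.06 ± 0.30 in heterozygotes and -1.23 ± 0.31 in knockouts, a difference of 2.29 ± 0.43 (log2, SE; edgeR adjusted p = 0.0273). The count of such genes was 0 with DESeq2 size factors, without the sex term, with the noncoding share as a covariate and with only the compared groups in the fit, and it ran from 0 (without animal 2476, 9469, 1108 or 8042, among others) to 29 (without animal 1106).

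The list medians ran as follows in heterozygotes, wild types and knockouts. Disease-associated genes were at 0.54, 0.67 and 0.40, and cell-cycle genes at -1.02, -1.15 and -0.82. Interferon genes were at -0.52, -0.64 and -0.50. Neutrophil genes were at -1.97, 0.31 and 1.71. Class I genes were at 0.47 (0.0857 without animal 8042), -0.41 and -1.07, class II genes at 0.48, -0.82 and -0.19, and genes of the mitochondrial genome at 0.50, -1.13 and -0.92. None of the members named from these lists passed the test of the difference between genotypes.

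In the nonmicroglia fraction of the same 7 mice 1 of 16915 genes passed (0.00591%): Ptgds, the prostaglandin D synthase of oligodendrocytes and meninges, rose by 1.83 ± 0.29 on the log2 scale (SE; edgeR adjusted p = 0.000355). Its libraries there gave 1215, 1326, 1243 and 953 CPM at 12 weeks and 298, 220 and 494 CPM at 5 weeks, with no overlap, while the microglia of the same mice held 4.55 to 24.8 CPM at 12 weeks and 14.2 to 36.97 CPM at 5 weeks. No gene passed in that fraction without animal 1108 or with only the compared groups in the fit. Apoe in that fraction had a log2 fold change of 0.43 (adjusted p = 0.745), Pld3 of 0.15 and Tgm2 of 0.98 (adjusted p = 0.737).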

How the data were processed

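RNA was sequenced from microglia and from nonmicroglia cells of 37 mice, giving 74 libraries. The deposited values are counts of 3' tags per gene for 49912 genes, whole numbers with no normalization. Per the labels' protocols, libraries were made with a QuantSeq 3' kit after sorting. FastQC 0.11.5, STAR, MultiQC, R 3.4.3 and GRCm38.p6 stand in the submitters' processing notes; for the counter, annotation, strand setting and molecular identifiers nothing is stated, so genes that overlap or have near-identical copies (Rps26, class I genes) are uncertain. Whether the Trem2 tags lie in the deleted part of the gene is not stated.

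The 37 microglia libraries were fitted together in edgeR 4.0.16 (R 4.3.3; TMM, filterByExpr with a minimum count of 10, 12 group means plus sex, robust quasi-likelihood test, Benjamini-Hochberg adjustment over 14087 genes, threshold 0.05). Nonmicroglia libraries were fitted separately (16915 genes). CPM values are TMM-scaled. Every other choice was changed singly: DESeq2 1.42.0, limma 3.58.1 with quality weights, DESeq2 size factors, no count filter, no sex term, the noncoding share as a covariate, only the compared groups, and each library left out. The code was checked on simulated counts. The SE of a log2 fold change was its absolute value divided by the square root of the quasi-likelihood F statistic, and the intervals were built from that SE. For genes with libraries at 0 counts these values are rough. The counts behind each library limit precision, and intervals cover this sampling and the spread between single mice.

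Named genes were a panel, the called genes and the called members of each list (else the one with the smallest p). Genes named because their libraries did not overlap, or to illustrate a list (Npc2, Tfeb, Sall1, Srebf2, Pcna, mt-Nd1, Fli1, Lgals1 and others), and mt-Rnr1, Ccnd1 and Ctnnbip1 were picked once values were known. The comparison, members and lists were chosen with earlier results of these data known. Gene coordinates are GENCODE M21, matched on Ensembl identifier for 49825 genes. Promoters and motifs come from RefSeq windows of 300 bases on GRCm38.p6; Tgm2, Rtp4, Tmem119 and Ccnd1 have no entry there. A gene that 2 of the lists share is counted in them but not reported here.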

Additional observations from a re-analysis of the deposited data

Results flagged for a closer look

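Among the 4 libraries at 12 weeks, 7 of the 81 named genes had 1 library far from the others; chance flags about 1 in 20 groups. Animal 9469 stood apart for Cxcl10 (23.02 CPM, next 94.5), H2-D1 (1070 CPM, next 948), H2-DMa (313 CPM, next 166), Ighd (46.0 CPM, next 6.46) and Ccr7 (0.767 CPM, the others at 0). The Ccr7 value is very low, and with the others at 0 any count in 1 library would have been flagged. Animal 6296 stood apart for Flt1 (340.1 CPM, next 199.5), and animal 1040 for Tgm2 (18.1 CPM, next 30.1). The change of Rps26 over time differed between heterozygous and knockout microglia by 2.29 on the log2 scale, the one such difference that passed edgeR's test.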

How the results depend on the processing

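No paired analysis was possible because the 12-week and 5-week mice share no animal number. For heterozygotes on cuprizone edgeR called 3 genes, DESeq2 13, limma 26 and edgeR without a count filter 16, and 0 to 10 with 1 library left out. On control chow the main count was 0, with 13 in DESeq2, 15 without the filter and 0 to 1 with a library left out. For the difference between diets it was 0, with 28 in DESeq2, 14 without the filter and 0 to 1. For wild types it was 14, with 65 in DESeq2, 81 in limma, 35 without the filter, 8 without the sex term, 9 with the noncoding share, 3 with only the compared groups and 5 to 15. For knockouts it was 0, with 67 in DESeq2, 7 in limma, 75 without the filter and 0 to 17. For heterozygotes minus wild types it was 0, with 4 in DESeq2, 9 in limma, 19 without the filter, 1 with only the compared groups and 0 to 9. For heterozygotes minus knockouts it was 1, with 35 in DESeq2, 20 in limma, 59 without the filter, 0 with DESeq2 size factors, without the sex term, with the noncoding share or with only the compared groups, and 0 to 29. For the nonmicroglia fraction it was 1, with 31 in DESeq2, 10 in limma, 48 without the filter, 0 with only the compared groups and 0 to 9. The 880 genes without overlap became 1324 to 2157 with a library left out, where fewer libraries have to be separated. For the other count changes the cause was not tested.

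Among named genes the log2 fold change changed sign with 1 library left out for Abca1 (-0.346 to 0.0876, and 0.0688 without animal 9469), Cd9 (-0.701 to 0.548), Ch25h (-0.225 to 1.554, and -0.151 without animal 1106), Ctsb (-0.0208 to 0.247), Ctsd (-0.0355 to 0.370), Gzma (-5.66 to 0.315) and P2ry12 (-0.422 to 0.0922). None of these genes had passed the test.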
